A study of Mus musculus with 4 samples.

Results

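Oxidative phosphorylation is built from 2 genomes, and its RNA was read here in single cells of the mouse liver. The members are 98 of the 32285 genes in the count tables, chosen by their symbols alone. There are 13 mitochondrial-genome genes (symbols starting mt-Nd, mt-Co, mt-Cyt or mt-Atp) and 85 nuclear genes (Nduf, Sdh, Uqcr, Cox4i, Cox5, Cox6, Cox7, Cox8 and Atp5 symbols, without Ndufa4l2 and the Ndufaf and Sdhaf assembly factors). Complex I takes 7 mitochondrial and 37 nuclear members, complex II only 4 nuclear ones, complex III 1 and 8, complex IV 3 and 19, and complex V, the ATP synthase, 2 and 17. Ndufb1-ps is annotated as non-coding. The 13 mitochondrial members are all of the genes with an mt- symbol, so their summed share is also the usual mitochondrial quality measure, and the filter on that share acts on the result itself.

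The respiratory chain passes electrons from NADH (complex I) and succinate (complex II) through complex III to oxygen at complex IV, and the ATP synthase uses the proton gradient so made. The mitochondrial genome encodes core subunits of every complex but the second, and is transcribed inside the organelle as long RNAs that are then cut into shorter messages. The other subunits are transcribed in the nucleus, translated in the cytosol and imported, so a working complex needs products of both genomes.

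Livers came from male mouse offspring of mothers with intrauterine hyperglycemia (IHG) or of control mothers (Ctrl), and 1 library was made from each of adult IHG, adult Ctrl, fetal IHG and fetal Ctrl. Adults were 8 weeks old and fetuses were at E18.5; the strain, and how hyperglycemia was brought about, are not given in the sources used here. Each library pooled tissue from 3 pregnant mice or 3 adults, per the labels' protocols, so animals cannot be separated and no difference below has a replicate check or a test. All 4 livers were digested with collagenases, hyaluronidase and DNase and treated with an erythrocyte lysis buffer; only the adult livers were perfused, through the portal vein.

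Kept cells numbered 6500 in adult IHG and 4951 in adult Ctrl, with medians of 2220.5 and 2514 UMIs (unique molecular identifiers, each a counted RNA molecule) per cell. The fetal libraries kept 7925 IHG and 7594 Ctrl cells, with medians of 9709 and 7402.5 UMIs. Cells were grouped within each age, and a class is called B-like, T-like and so on by its marker genes, so these names are rebuilt and not the authors' own. No adult cluster was named hepatocyte-like, and the hepatocyte marker RNAs took 0.103% of adult IHG and 0.216% of adult Ctrl UMIs, so the adult results are mainly about immune cells. Libraries shared 8 to 26 cell barcodes per pair. Intervals are 95% and cover counting error only.

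In the adult libraries, RNA of the mitochondrial genome was a smaller share of all UMIs in IHG than in Ctrl, while RNA of the nuclear members differed little. Over all kept cells the 13 mitochondrial members held 3.11% of UMIs in adult IHG (3.10 to 3.12) and 3.72% in adult Ctrl (3.71 to 3.73), a log2 ratio of -0.26. The 85 nuclear members held 1.60% and 1.74%, a log2 ratio of -0.12. In B-like cells, the largest adult class, the mitochondrial share was 3.46% in 3436 IHG cells and 4.35% in 1852 Ctrl cells, and the nuclear share was 1.20% and 1.21%. The log2 ratios were thus -0.33 (-0.34 to -0.32) for the mitochondrial and -0.02 (-0.03 to -0.002) for the nuclear genome. T-like cells had 3.22% mitochondrial UMIs in IHG and 3.84% in Ctrl (-0.25), with nuclear shares of 1.74% and 1.83%. NK-like cells had 2.46% and 3.03% (-0.30), with nuclear shares of 1.87% and 1.82%.

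The same sign was seen across adult classes. The mitochondrial share was lower in IHG in 10 of 10 named classes, with the counting interval below 0 in 8, and the log2 ratios ran between -1.19 and -0.01. The nuclear share was higher in 4 classes and lower in 6, within -0.15 to 0.13. The ratio of mitochondrial to nuclear UMIs, which does not depend on the library total, was lower in IHG in 9 of 10 classes, plasmacytoid dendritic-like cells being the exception at 0.02 (-0.08 to 0.12). Splitting the lymphocytes more finely gave the same picture: in 12 of 12 clusters of B-, T- and NK-like cells the mitochondrial share was lower in IHG (-0.39 to -0.19), while the nuclear share was higher in 8 and lower in 4 (-0.06 to 0.05). All 12 clusters come from the same pair of libraries, so their agreement is not replication. Depth moved with the groups in part, since B-like cells had medians of 2007.5 UMIs in IHG and 2219 in Ctrl, but NK-like cells had 2609.5 and 2537.5.

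**Figure D1:**
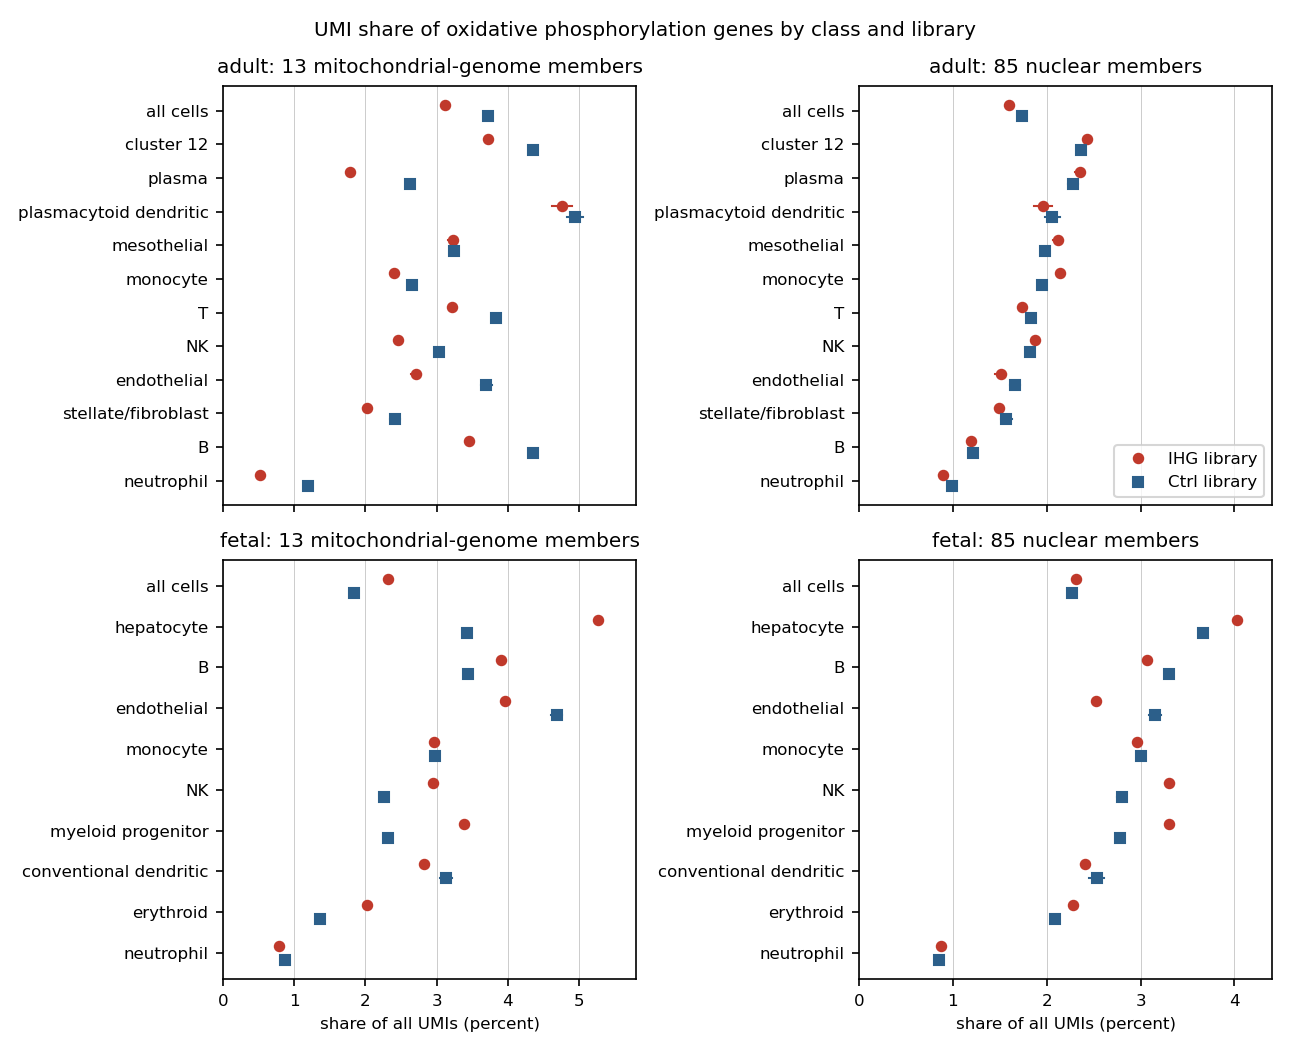
Share of all UMIs (percent, x axes) held by the 13 mitochondrial-genome members (left) and the 85 nuclear members (right) in each cell class, adult above and fetal below; red circles are IHG libraries, blue squares Ctrl libraries, and lines are 95% counting intervals. Adult mitochondrial shares lie lower in IHG in every named class, whereas nuclear shares of the 2 libraries lie close together.

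The largest and smallest adult differences fell in small classes. Neutrophil-like cells had 0.526% mitochondrial UMIs in 107 IHG cells and 1.20% in 188 Ctrl cells (-1.19), the lowest shares of any adult class. Few cells carried that difference: the median cell had 0.291% in IHG and 0.364% in Ctrl, and 50% of the class's mitochondrial UMIs were held by 11 of the 107 IHG cells and by 8 of the 188 Ctrl cells. Plasma-like cells, which secrete antibodies, had 1.79% in 20 IHG cells and 2.63% in 28 Ctrl cells (-0.56). Endothelial-like cells had 2.70% and 3.69%, and stellate/fibroblast-like cells 2.02% and 2.42%. Mesothelial-like cells, with 3.23% and 3.24%, and plasmacytoid dendritic-like cells, with 4.76% and 4.94%, had log2 ratios whose counting intervals included 0. Monocyte-like cells had 2.41% and 2.65%, but the mean of the per-cell shares was 4.02% in IHG and 3.89% in Ctrl. An unnamed cluster whose leading genes include Ttr, Tm4sf4, Ambp, Cldn3 and Sox9 had 3.73% and 4.36%.

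Classes also differed in how much mitochondrial RNA stood beside nuclear RNA. B-like cells had the highest ratio among the named adult classes, with 2.89 mitochondrial UMIs per nuclear member UMI in IHG and 3.59 in Ctrl. T-like cells had 1.85 and 2.09, NK-like cells 1.31 and 1.66, and monocyte-like cells 1.12 and 1.36. Plasma-like cells (0.760 and 1.15) and neutrophil-like cells (0.591 and 1.21) were at the low end. The nuclear share of B-like cells was below that of every other named adult class but the neutrophil-like one, and the mitochondrial share of B-like cells was below only that of plasmacytoid dendritic-like cells.

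In the fetal libraries the mitochondrial share of all cells was higher in IHG, at 2.31% against 1.84% in Ctrl (log2 ratio 0.33), and the nuclear share was 2.31% and 2.27% (0.02). The sign of the mitochondrial difference depended on how cells were weighted. The mean of the per-cell shares was 2.22% in IHG and 2.59% in Ctrl (-0.22), and the median cell had 1.39% and 1.66%. Among the deepest 25% of cells the share was 2.61% in IHG and 1.62% in Ctrl, and among the shallowest 25% it was 2.80% and 4.53%. The filter at 25% bears on this too: it removed 171 IHG and 416 Ctrl barcodes, which held 5.81% and 18% of their library's mitochondrial UMIs. Haemoglobin RNA took 20.01% of fetal IHG and 35.1% of fetal Ctrl UMIs, which lowers the share of every other gene in Ctrl.

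Within fetal classes no common direction was seen. The mitochondrial share was higher in IHG in 5 of 9 named classes and lower in 4 (-0.24 to 0.62), and the nuclear share was higher in 5 and lower in 4 (-0.32 to 0.25). When mitochondrial and haemoglobin UMIs were taken out of the total, the nuclear share was lower in IHG in 7 of the 9. The mitochondrial to nuclear ratio was higher in IHG in 7 of 9 classes, and in 4 of 9 when cells were thinned to 1000 UMIs.

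Hepatocyte-like cells, the parenchymal cells of the liver, had the highest fetal mitochondrial share in IHG, 5.27% in 126 cells, against 3.42% in 128 Ctrl cells (0.62). A group of mitochondria-rich cells made much of that gap. Cells over 10% mitochondrial UMIs numbered 17 in IHG and 5 in Ctrl and held 34.9% and 12.7% of the class's mitochondrial UMIs, and the median cell had 1.97% in IHG and 1.94% in Ctrl. With a maximum of 10% the log2 ratio was 0.34. Their nuclear share was 4.03% in IHG and 3.67% in Ctrl, the highest of the compared fetal classes in both libraries. Haemoglobin stood at 1.47% of the class's UMIs in IHG and 13.7% in Ctrl, and without it and the mitochondrial UMIs the nuclear share was 4.32% and 4.42%.

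Erythroid-like cells, red cell precursors that lose their mitochondria as they mature, had 2.03% mitochondrial UMIs in IHG and 1.36% in Ctrl (0.57), and 2.28% and 2.08% nuclear (0.13). Haemoglobin made up 36.8% of their UMIs in IHG and 52.3% in Ctrl, and the mix of maturation stages differed: the haemoglobin-poor cluster 13 held 444 IHG and 105 Ctrl cells. Within the 6 erythroid-like clusters the mitochondrial share was higher in IHG in 2 and lower in 4 (-0.39 to 0.21), so the class-wide excess was not seen inside most of the clusters. The nuclear share was lower in IHG in 5 of 6 clusters, and in 6 of 6 once mitochondrial and haemoglobin UMIs were left out of the total. Across the clusters the 2 genomes moved together as shares of all UMIs, from 3.71% mitochondrial and 3.54% nuclear UMIs in cluster 13 to 0.362% and 0.486% in cluster 3 of the IHG library. Haemoglobin took 1.09% of UMIs in that cluster 13 and 83.4% in that cluster 3, which lowers every other share. Without mitochondrial and haemoglobin UMIs in the total, the nuclear share was 3.72% and 3.00%.

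Fetal B-like cells had 3.91% mitochondrial UMIs in IHG and 3.44% in Ctrl (0.18), with nuclear shares of 3.07% and 3.30% (-0.11). The mitochondrial ratio reversed, to -0.07, with per-cell means. Myeloid progenitor-like cells had 3.39% and 2.31% mitochondrial and 3.30% and 2.79% nuclear UMIs, and both differences reversed (-0.39 and -0.46) when each library was clustered by itself. Endothelial-like cells were lower in IHG for both genomes, with 3.96% and 4.69% mitochondrial and 2.53% and 3.15% nuclear UMIs, in 142 IHG and 41 Ctrl cells. NK-like cells, whose cluster also expresses Cd3g and Trbc1, had 2.95% and 2.26% mitochondrial UMIs, beside haemoglobin shares of 0.657% and 24.3%. Without mitochondrial and haemoglobin UMIs in the total the NK-like mitochondrial ratio turned from 0.38 to -0.011 and the nuclear one from 0.24 to -0.15, and under median-of-ratios scaling they were -0.13 and -0.27. Conventional dendritic-like cells had 2.82% and 3.13%, monocyte-like cells 2.97% and 2.98%, and neutrophil-like cells 0.792% and 0.873%. Neutrophil-like cells thus had the lowest mitochondrial share of the named classes in each of the 4 libraries.

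**Figure D2:**
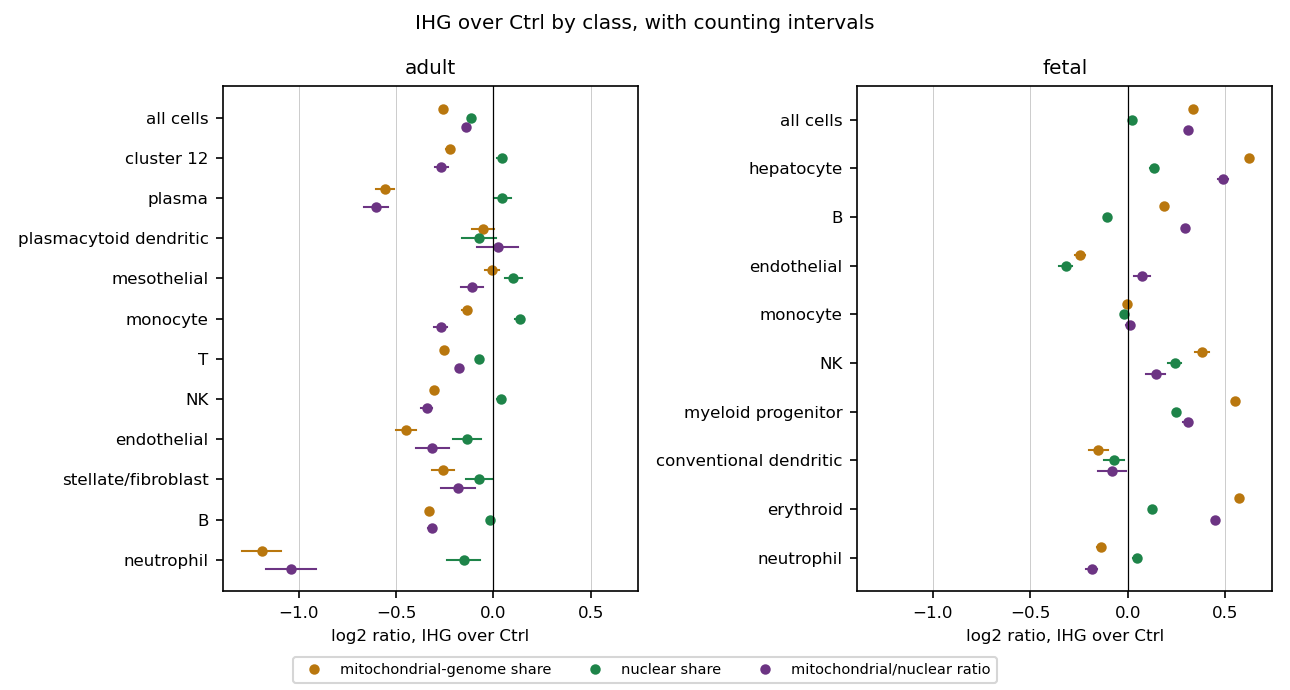
Log2 ratio of IHG over Ctrl (x axes) for the mitochondrial-genome share (orange), the nuclear share (green) and the mitochondrial to nuclear ratio (purple) in each class, adult left and fetal right, with 95% counting intervals as lines. In the adult panel the orange points of the named classes lie between -1.19 and -0.01 while the green ones lie within -0.15 to 0.13; in the fetal panel both genomes fall on either side of 0.

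The 13 mitochondrial genes did not differ to the same extent in the adult libraries. By the median over classes mt-Co3, a core subunit of cytochrome c oxidase, was lowest in IHG. In B-like cells mt-Co3 had 4065 CPM (UMIs of the gene scaled to a common total) in IHG and 5758 in Ctrl (-0.50, -0.53 to -0.48). Across named classes mt-Co3 was lower in IHG in 10 of 10, with a median log2 ratio of -0.44. mt-Co2 (median -0.34), mt-Atp6 (-0.34) and mt-Nd1 (-0.32) were also lower in 10 of 10. By complex, adult B-like cells were at -0.18 for the complex I genes, -0.29 for mt-Cytb of complex III, -0.38 for complex IV and -0.38 for complex V.

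A pair of short overlapping genes went the other way. mt-Atp8, a small ATP synthase subunit, had 2269 UMIs in IHG and 973 in Ctrl B-like cells of the adult, or 317 and 229 CPM (0.47, 0.36 to 0.58). In T-like cells mt-Atp8 had 1545 and 1137 UMIs (0.44), and it was higher in IHG in all 5 named classes with at least 100 UMIs. mt-Nd4l, a small complex I subunit, had 732 CPM in IHG and 536 in Ctrl B-like cells (0.45, 0.38 to 0.52) and was higher in 8 of 9 classes, plasma-like cells being lower at -0.16. mt-Nd5 was higher in 8 of 9 classes with a median of 0.09. As shares of all mitochondrial UMIs over all adult cells, mt-Atp8 had 0.884% in IHG and 0.497% in Ctrl, mt-Nd4l 2.05% and 1.23%, and mt-Co3 11.8% and 13.1%.

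Both mt-Atp8 and mt-Nd4l overlap the start of the next reading frame on the same strand. The 2 overlaps are shown because reads there could be counted for either gene; the files do not say how such reads were assigned. The sequences are the reference strand of mm10, and capitals mark the bases shared by both genes.
mt-Atp8 and mt-Atp6, chrM:7887-8009, plus strand: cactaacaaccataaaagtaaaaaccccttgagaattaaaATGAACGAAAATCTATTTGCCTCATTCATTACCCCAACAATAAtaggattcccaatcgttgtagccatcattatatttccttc
mt-Nd4l and mt-Nd4, chrM:10127-10213, plus strand: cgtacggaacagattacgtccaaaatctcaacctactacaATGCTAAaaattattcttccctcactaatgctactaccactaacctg
The mt-Atp8 overlap spans 43 bases (7927 to 7969), or 21.1% of the 204-base gene, and ends with the stop codon of mt-Atp8; the mt-Nd4l overlap spans 7 bases (10167 to 10173). In both, the capitals open with the ATG of the downstream gene. mt-Atp6 and mt-Nd4, the downstream partners, were at -0.41 and -0.24 in adult B-like cells, on the other side of 0 from mt-Atp8 and mt-Nd4l. How far the assignment of overlapping reads entered these values was not tested.

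The fetal libraries did not share that pattern. Over all fetal cells mt-Atp8 had 0.174% of mitochondrial UMIs in IHG and 0.196% in Ctrl, and mt-Nd4l had 0.757% and 0.780%. By the median over the 9 named classes, mt-Nd1 (0.46) and mt-Nd2 (0.36), both complex I subunits, stood well above 0. mt-Nd1 had 1220 CPM in IHG and 617 in Ctrl erythroid-like cells (0.98), 3122 and 1596 in hepatocyte-like cells (0.97) and 1840 and 1341 in B-like cells (0.46), and was higher in IHG in 8 of 9 named classes. mt-Nd2 was at 0.90 in both erythroid-like and hepatocyte-like cells. mt-Nd6, the only member on the light strand, had 711 UMIs in IHG and 205 in Ctrl erythroid-like cells (1.62, 1.40 to 1.85), and 143 and 147 UMIs in fetal B-like cells, or 19.6 and 11.2 CPM (0.80). It held 0.056% and 0.034% of fetal mitochondrial UMIs, the smallest share of the 13.

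**Figure D3:**
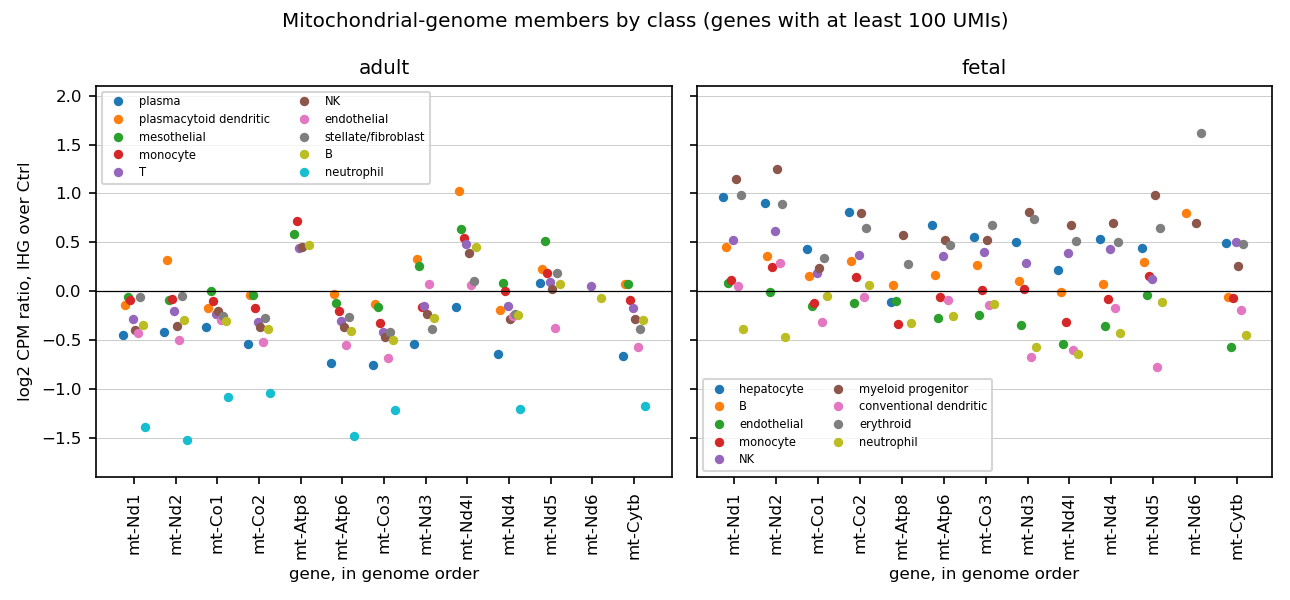
Log2 CPM ratio of IHG over Ctrl (y axis) of the 13 mitochondrial genes in genome order (x axis), 1 point per named class with at least 100 UMIs for the gene, adult left and fetal right, with colours naming the class in each panel. In the adult panel mt-Atp8 and most mt-Nd4l points lie above 0 while mt-Co2, mt-Atp6 and mt-Co3 lie below it; in the fetal panel mt-Nd1 and mt-Nd2 reach 1.15 and 1.25 in myeloid progenitor-like cells.

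The nuclear members, 85 genes on many chromosomes, differed little in the adult libraries as a sum, and in B- and T-like cells also gene by gene. Their fetal sums, given above, reached -0.32 and 0.25. Among members with at least 50 UMIs, 0 of 78 were 1.5-fold higher and 0 of 78 were 1.5-fold lower in IHG in adult B-like cells, beside 1.62% and 3.83% of all genes. Adult T-like cells likewise had 0 of 78 in each direction, beside 2.1% higher and 3.15% lower of all genes. The median log2 ratio of the members was -0.01 in B-like and -0.05 in T-like cells, against -0.10 and -0.04 over all measured genes. In each of the other 8 named adult classes but the plasma-like one, some members did pass 1.5-fold, and the members' median ran between -0.27 in neutrophil-like and 0.15 in monocyte-like cells. NK-like cells had 1 of 78 higher and monocyte-like cells 2 of 77, beside 174 of 5393 and 382 of 4427 genes. Mesothelial-like cells had 5 of 77 higher and 2 lower, beside 154 and 248 of 2552. Stellate/fibroblast-like cells had 4 of 56 higher and 1 lower, beside 211 and 176 of 1310. Plasmacytoid dendritic-like cells had 1 of 33 higher and 3 lower, beside 33 and 50 of 566. Endothelial-like cells had 4 of 51 and neutrophil-like cells 5 of 32 lower, beside 149 of 1124 and 149 of 1326. The 5 members with most UMIs show the closeness of the pair in B-like cells. Cox8a, a structural subunit of complex IV, had 686 CPM in IHG and 675 in Ctrl. Atp5e, the epsilon subunit of the ATP synthase, had 760 and 757, and its partner Atp5h had 313 and 297. Cox6c had 324 and 316 CPM, and Cox4i1, a regulatory subunit of complex IV, had 519 and 563 (-0.12, -0.19 to -0.04).

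A few adult nuclear members kept 1 direction over classes. Cox7a2l, also called Scaf1, links complexes III and IV in a supercomplex. It had 153 CPM in IHG and 185 in Ctrl B-like cells (-0.28, -0.41 to -0.14) and 184 and 223 in T-like cells (-0.28, -0.40 to -0.15). It was lower in IHG in all 5 named classes with at least 100 UMIs, with a median of -0.28. Ndufa6, a complex I accessory subunit, was lower in 8 of 8 classes (median -0.21), though in B-like cells it stood at 201 CPM in both libraries. Ndufc1, another complex I subunit, was higher in 6 of 6 (median 0.17). These members were picked for that recurrence after values were seen, no test was possible, and the same count was not made over all genes. In all 10 adult classes at once, 9 nuclear members had at least 100 UMIs, and 0 of them kept 1 direction throughout.

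In the fetal libraries the nuclear members separated by the length of their coding sequence. Among the 56 that had at least 100 UMIs in all 9 named fetal classes, 6 were lower in IHG in all 9 and 3 were higher in all 9. The same count was not made over all genes. The median over all measured genes was above 0 in each of these classes, from 0.17 in conventional dendritic-like to 0.68 in erythroid-like cells. The 6 were Atp5k, Atp5mpl, Ndufa3, Atp5md, Ndufb1-ps and Atp5e, of which the 5 with a coding sequence have 156 to 252 coding bases. The 3 higher ones were Atp5b (1587 bases), Ndufb5 (567) and Atp5g2 (438). Over the 80 members with a coding length and at least 100 UMIs in fetal B-like cells, the Spearman correlation of the log2 ratio with coding length was 0.83. It was 0.79 over 78 members in erythroid-like and 0.78 over 76 in hepatocyte-like cells, and lay between 0.63 and 0.83 in all 9 named classes. In adult B-, T- and NK-like cells it was 0.06, 0.10 and 0.16. Smaller adult classes had either sign, between -0.55 over 10 members in plasmacytoid dendritic-like cells and 0.21 over 20 in endothelial-like cells, with -0.29 over 60 in mesothelial-like cells. Points of 1 class share both libraries, and these correlations describe them only.

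Single members show the size of the gradient. Atp5k, which helps ATP synthase dimers form, had 299 CPM in IHG and 471 in Ctrl fetal B-like cells (-0.66, -0.73 to -0.59), 211 and 306 in erythroid-like cells (-0.54) and 369 and 464 in hepatocyte-like cells (-0.33). In adult B-like cells Atp5k had 134 and 131 CPM. Ndufa3, an accessory subunit of complex I, had 183 and 298 CPM in fetal B-like cells (-0.70), 145 and 205 in erythroid-like cells (-0.49) and 209 and 400 in monocyte-like cells (-0.94). At the long end, Sdha, the flavoprotein subunit of complex II with 1992 coding bases, had 80.7 CPM in IHG and 54.9 in Ctrl fetal B-like cells (0.55) and 46.8 and 26.0 in erythroid-like cells (0.85). Atp5b, the catalytic beta subunit of the ATP synthase, had 454 and 388 CPM in B-like cells (0.22), 456 and 317 in erythroid-like cells (0.52) and 759 and 445 in hepatocyte-like cells (0.77). Ndufa10 of complex I had 195 and 102 CPM in hepatocyte-like cells (0.94). Uqcrc2, a core protein of complex III, was higher in IHG in all 8 named fetal classes where it had at least 100 UMIs (median 0.62).

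Members with at least 100 UMIs were then grouped by length. The 23 under 300 coding bases had a median log2 ratio of -0.36 in fetal B-like cells and the 11 with at least 900 bases one of 0.21. The medians were -0.05 and 0.72 in erythroid-like cells and -0.07 and 0.46 in hepatocyte-like cells, against -0.03 and -0.06 in adult B-like cells. The length limits were set after the values had been seen. In fetal B-like and erythroid-like cells other gene families had the gradient too. Over 89 cytosolic ribosomal protein genes the correlation was 0.75 in B-like and over 88 it was 0.77 in erythroid-like cells. Over 78 mitochondrial ribosomal protein genes it was 0.59 in both. Across the named fetal classes the cytosolic family ran from 0.44 in myeloid progenitor-like to 0.84 in NK-like cells. The mitochondrial family ran from -0.12 over 33 genes in endothelial-like to 0.59 in B-like cells, with 0.10 over 38 in neutrophil-like cells. Over all 8065 genes with a coding length and at least 100 UMIs the correlation was 0.03 in fetal B-like cells, and over 2065 in hepatocyte-like cells 0.35. The all-gene value ran from 0.01 in neutrophil-like to 0.49 in endothelial-like cells. Transcript length gave 0.63 for the members in fetal B-like cells, and the members' UMIs themselves gave -0.31 there and -0.56 in erythroid-like cells. Ranked by their own UMIs, the cytosolic ribosomal genes gave weaker correlations, 0.13 (fetal B-like) and 0.11 (erythroid-like). Over the named fetal classes these UMI values ran from -0.02 (myeloid progenitor-like) to 0.44 (endothelial-like). Shorter members of the chain are often accessory subunits and longer ones often catalytic cores, so role and length overlap among the members. Each fetal side is also 1 library, and the part of role, length, abundance or preparation was not tested.

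**Figure D4:**
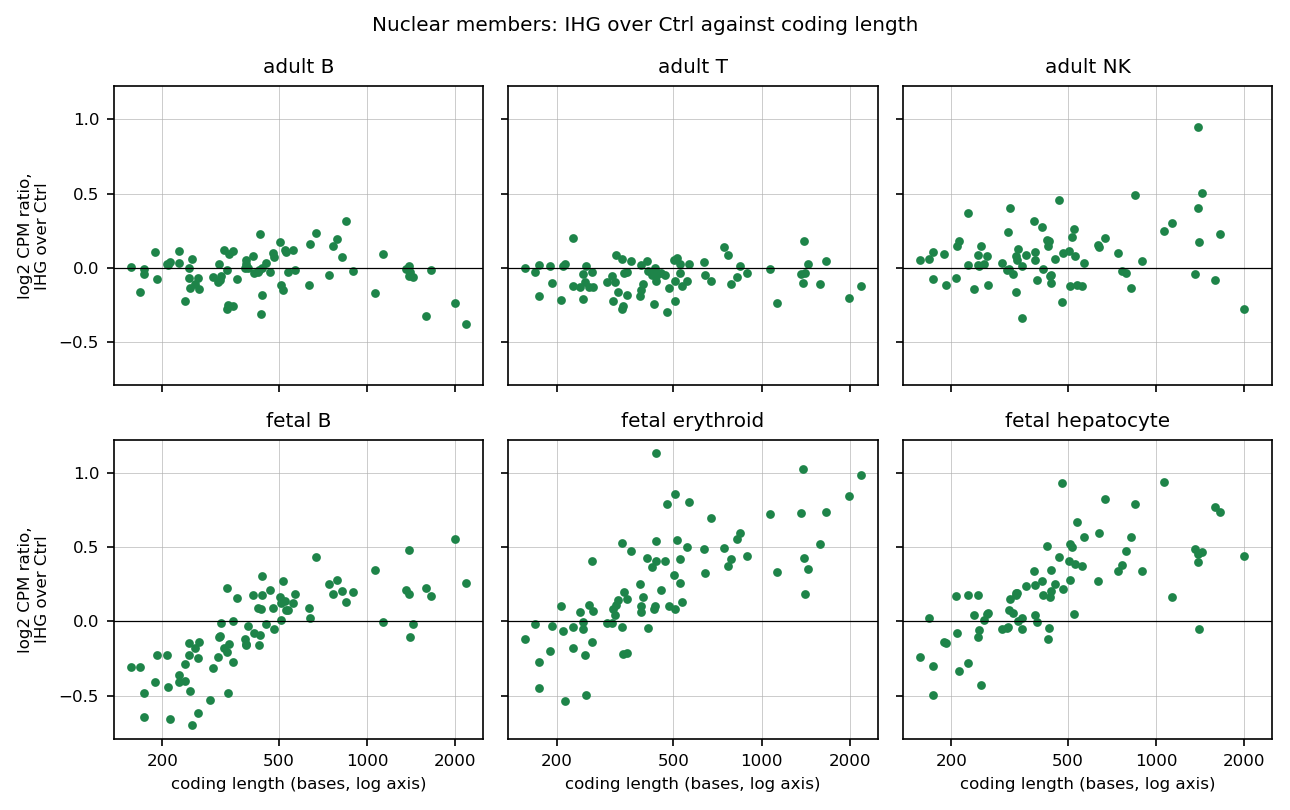
Log2 CPM ratio of IHG over Ctrl (y axes) of each nuclear member with at least 100 UMIs against its coding length in bases (x axes, log scale), with adult B-, T- and NK-like cells in the upper row and fetal B-, erythroid- and hepatocyte-like cells in the lower row. The fetal points climb with length (Spearman 0.83, 0.79 and 0.78), and the adult points drawn show no such climb (0.06, 0.10 and 0.16).

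Complexes differed in the fetal libraries along the same line. Complex II, whose 4 nuclear Sdh genes feed succinate electrons into the chain, stood highest among the nuclear parts of the complexes in all 9 named fetal classes; the mitochondrial complex I genes were higher still in some, at 0.76 in erythroid-like cells. Its summed level was 268 CPM in IHG and 161 in Ctrl erythroid-like cells (0.73, 0.69 to 0.77), 631 and 375 in hepatocyte-like cells (0.75, 0.57 to 0.93) and 434 and 224 in NK-like cells (0.95). Nuclear complex IV genes were at 0.01 in erythroid-like and at -0.21 in B-like cells, where complex II was at 0.19. Complex II lay near the median of all measured genes in B-like (0.18), monocyte-like (0.21 against 0.22) and erythroid-like cells (0.73 against 0.68). That median was further below complex II in the other named classes, at 0.21 in hepatocyte-like and 0.59 in NK-like cells. The complex II interval included 0 in endothelial-like (-0.03 to 0.66) and conventional dendritic-like cells (-0.11 to 0.97). Of 79 nuclear members with at least 50 UMIs in erythroid-like cells, 12 were 1.5-fold higher and 0 lower in IHG, among 55.6% and 1.82% of all genes. The members' median there was 0.19, below the 0.68 of all measured genes. Ndufs1, an iron-sulfur subunit of complex I, was among the highest erythroid members, with 37.9 CPM in IHG and 19.1 in Ctrl (0.99).

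In fetal B-like cells 0 of 81 members were 1.5-fold higher and 4 lower, among 14% and 6.37% of all genes; the 4 were Ndufa3, Atp5k, Atp5md and Cox6b2. Hepatocyte-like cells had 9 of 79 higher and 0 lower, among 21.3% and 7.28%. Median-of-ratios scaling, which sets the median gene to 0, moved all genes by 0.68 in erythroid-like and by 0.20 in fetal B-like cells. Under it 0 erythroid members were 1.5-fold higher and 29 lower, so the direction of the erythroid count depends on the scaling. The order of the members by length does not, since a scaling moves all genes of a class alike.

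Other mitochondrial gene lists gave a point of reference. In fetal B-like cells 71 of 78 mitochondrial ribosomal protein genes were above 0 (median 0.23), as were 36 of 45 assembly factors (0.24) and 14 of 17 genes of the tricarboxylic acid cycle and pyruvate dehydrogenase (0.21), beside a median of 0.18 over all measured genes and -0.03 over the nuclear members. In erythroid-like cells the cycle had 17 of 17 above 0 (0.58) and the mitochondrial ribosome 75 of 78 (0.59), beside 0.68 over all genes. In adult B-like cells 14 of 17 cycle genes were below 0 (-0.19), as were 14 of 17 in T-like cells (-0.19). The mitochondrial ribosome had 33 above and 45 below in adult B-like cells (-0.02). The all-gene medians were themselves below 0, at -0.10 (adult B-like) and -0.04 (adult T-like). Markers of stress and of other cells moved in the fetal B-like class as well: 9 of 9 immediate-early genes were lower in IHG (median -1.73), haemoglobin was 1.62% of UMIs in IHG and 7.35% in Ctrl, and 14 of 14 hepatocyte genes were higher (1.5). With mitochondrial and haemoglobin UMIs out of the total, the B-like mitochondrial share was at 0.10 and the nuclear share at -0.19; the part of the other markers was not tested. Ndufa4l2, a hypoxia-induced paralog of Ndufa4 that the symbol rule leaves out, had 8661 UMIs in IHG and 2009 in Ctrl erythroid-like cells, or 168 and 43.8 CPM.

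The nuclear share of B-like cells differed far more between ages than between IHG and Ctrl. The nuclear share of adult B-like cells was 1.20% in IHG and 1.21% in Ctrl, against 3.07% and 3.30% in fetal B-like cells, so adult over fetal was at -1.36 in IHG and -1.45 in Ctrl. The mitochondrial share did not follow: it was at -0.18 in the IHG pair and 0.34 in the Ctrl pair. Nuclear complex I genes together had 3016 and 2974 CPM in adult IHG and Ctrl B-like cells, against 9261 and 9592 in fetal ones, whereas the mitochondrial complex I genes had 6691 and 7581 against 5970 and 4985. The mitochondrial to nuclear ratio was thus higher in adult B-like cells by 1.18 in the IHG pair and 1.79 in the Ctrl pair on the log2 scale. Age is bound up with library preparation, perfusion, depth and the stages of B-like cells present, which cannot be told apart from it. Proliferation genes took 0.256% of UMIs in fetal IHG and 0.253% in fetal Ctrl B-like cells, against 0.00257% and 0.00256% in adult ones. The B-like class is thus not the same mix of cells at the 2 ages.

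Most nuclear members took part in that difference. At least 1.5-fold lower in the adult were 71 of 81 members in the IHG B-like pair (45.5% of all genes) and 75 of 81 in the Ctrl pair (39.6%). Ndufs5, a complex I accessory subunit, had 37.8 CPM in adult and 377 in fetal IHG cells, and 39.3 and 380.0 CPM in Ctrl (-3.32 and -3.27). Uqcr11 of complex III stood at -3.02 and -3.16. Cox6b2 had 4 UMIs in adult and 105 in fetal IHG cells, and 3 and 290 UMIs in Ctrl. Ndufa6 (-0.21 and -0.23) and Uqcrh (-0.23 and -0.22) were among the nuclear members that differed least. Among mitochondrial genes mt-Atp8 was higher in the adult by 2.04 and 1.64 and mt-Nd4l by 1.35 and 0.89. Proliferation genes, as a sum, were at -6.63 in the IHG pair and -6.62 in the Ctrl pair of the same class, and the mitochondrial ribosome at -1.9 and -1.73; their part in the difference was not tested.

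The other classes named at both ages had smaller differences of the nuclear share. NK-like cells were at -0.82 in IHG and -0.62 in Ctrl, with 57 of 78 and 49 of 76 members 1.5-fold lower, beside 32.4% and 17.9% of all genes. Endothelial-like cells were at -0.75 and -0.93, with 54 of 78 and 57 of 68 members lower (39.4% and 35.6% of all genes). Monocyte-like cells were at -0.47 and -0.62, with 47 of 79 and 51 of 79 members lower (47.2% and 35.8%). Neutrophil-like cells were at 0.02 and 0.22, with 32 of 78 and 16 of 75 members lower (24.2% and 15.2%). The mitochondrial to nuclear ratio was higher in the adult in both pairs of NK-like (0.56 and 1.04), endothelial-like (0.20 and 0.59) and monocyte-like cells (0.17 and 0.45). In neutrophil-like cells it was at -0.61 in the IHG pair and 0.24 in the Ctrl pair.

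Some subunits are encoded by several genes, and the choice among them differed between cell classes and, in some fetal classes, between IHG and Ctrl. The c-ring of the ATP synthase, the rotor through which protons pass, is made of 1 protein encoded by Atp5g1, Atp5g2 and Atp5g3. As a share of the 3 genes' UMIs, Atp5g1 took 14.2% in adult IHG and 13.5% in adult Ctrl B-like cells, against 46.5% and 51.8% in fetal erythroid-like cells of IHG and Ctrl. Atp5g1 was also high in hepatocyte-like cells (46.1% and 48.4%) and myeloid progenitor-like cells (40.3% and 39.8%) of the fetus, and among adult classes in plasma-like cells (35.4% and 34.0%). Atp5g2 took 65.2% and 65.5% in adult B-like cells. In fetal erythroid-like cells Atp5g2 had 29.7% in IHG and 20.4% in Ctrl, and its level was 360 CPM in IHG and 164 in Ctrl (1.13, 1.09 to 1.17), the highest ratio of any nuclear erythroid member.

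The start regions of these 3 genes are shown because they give rise to the same mature c-ring protein while their RNAs differ by class. Each covers 250 bases before and 50 after 1 annotated start, 5′ to 3′ on the gene's own strand, from RefSeq on GRCm38.p6. Capitals mark a match to a searched motif.
Atp5g1, chr11:96075582-96075881, minus strand: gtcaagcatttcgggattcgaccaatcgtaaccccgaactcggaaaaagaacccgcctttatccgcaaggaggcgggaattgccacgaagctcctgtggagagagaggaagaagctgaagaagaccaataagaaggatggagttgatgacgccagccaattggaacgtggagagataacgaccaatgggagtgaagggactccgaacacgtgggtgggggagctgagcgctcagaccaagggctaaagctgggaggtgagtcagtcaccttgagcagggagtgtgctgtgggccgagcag
Atp5g2, chr15:102670998-102671297, minus strand: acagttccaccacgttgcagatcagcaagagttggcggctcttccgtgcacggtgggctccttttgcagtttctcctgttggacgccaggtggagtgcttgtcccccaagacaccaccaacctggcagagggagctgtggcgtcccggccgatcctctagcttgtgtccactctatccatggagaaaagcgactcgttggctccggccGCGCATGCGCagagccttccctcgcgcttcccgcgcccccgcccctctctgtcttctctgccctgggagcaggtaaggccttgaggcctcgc
Atp5g3, chr2:73911277-73911576, minus strand: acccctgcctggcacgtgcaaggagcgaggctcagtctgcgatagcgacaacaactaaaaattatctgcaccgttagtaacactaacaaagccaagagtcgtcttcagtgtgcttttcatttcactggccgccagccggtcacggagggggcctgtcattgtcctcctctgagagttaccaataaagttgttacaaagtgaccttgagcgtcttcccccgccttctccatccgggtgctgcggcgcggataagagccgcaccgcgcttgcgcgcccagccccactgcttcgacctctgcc
Both strands were searched for 4 motifs: the palindromic NRF1 core shown in capitals in the Atp5g2 window, ETS factors as CCGGAAG, YY1 as ATGGCGGC and the TATA box as TATAAA. Of the 3, only the Atp5g2 window held a match, to the NRF1 motif. Only 1 window per gene was searched. In GENCODE M21 the Atp5g2 gene extends to 102672352, upstream of its window, and the region around that start was not searched. NRF1 is known as an activator of nuclear respiratory genes. Its motif was in 5 of the 68 member promoters that had an entry (7.35%) and in 0.977% of 27025 promoters of the same length. The ETS motif was in 16 member promoters (23.5%, against 9.12% of all), YY1 in 6 (8.82%, against 2.38%) and TATA in 8 (11.8%, against 14.2%). A match is a description of these letters and not a binding site.

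Cytochrome c oxidase has paired isoforms as well. Cox6a2, the form known from heart and skeletal muscle, took 90.2% of Cox6a1 and Cox6a2 UMIs in adult IHG and 85.4% in adult Ctrl plasmacytoid dendritic-like cells, with 120 and 193 UMIs in 21 and 28 cells. In adult B-like cells Cox6a2 had 1 of 659 UMIs in IHG and 2 of 467 in Ctrl, and the next adult value was 9 of 53 UMIs (17%) in Ctrl endothelial-like cells. The fetal cluster 17, led by Cpa3, Prss34, Mcpt8 and the plasmacytoid marker Siglech, had 275 and 213 Cox6a2 UMIs (24.3% and 52.9%), and no other fetal class passed 5.15%. Cox6a2 was not among the genes used for clustering. Cox4i2, the form linked to low oxygen and to lung, had 172 UMIs in IHG and 20 in Ctrl in the same fetal cluster, 79 and 3 in myeloid progenitor-like cells and 35 and 1 in monocyte-like cells. These raw counts are not levels, because IHG held more UMIs of all genes in each of these classes. The totals were 4406103 and 867934 in cluster 17, 7666447 and 1483026 in myeloid progenitor-like and 3698210 and 1706661 in monocyte-like cells. In each of them the excess of the total was smaller, as a ratio, than that of Cox4i2, which rests on few Ctrl UMIs. Over all adult cells Cox4i2 had 2 UMIs in IHG and 6 in Ctrl.

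Cox6b2, known from testis, took 18.6% of the Cox6b1 and Cox6b2 UMIs in fetal IHG and 15.7% in fetal Ctrl erythroid-like cells, and 19.2% and 17.2% in adult mesothelial-like cells. Cox7a1, the muscle form of another complex IV subunit, reached 5.22% in adult IHG and 4.67% in adult Ctrl cells of the Ttr-led cluster 12. Cox7a2l took 45.1% of the Cox7a1, Cox7a2 and Cox7a2l UMIs in adult IHG and 47.6% in adult Ctrl B-like cells, 39.8% and 42.9% in T-like cells and 18.2% and 18% in plasma-like cells. In fetal B-like cells it took 31.2% and 21.9%, and in fetal erythroid-like cells 12% and 7.45%. Cox8b, Cox8c and Cox7b2 had 0 UMIs in adult and fetal B-like cells. Reads that fit paralogs equally well may have been dropped or shared in the authors' counting, so these shares are uncertain to that extent.

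**Figure D5:**
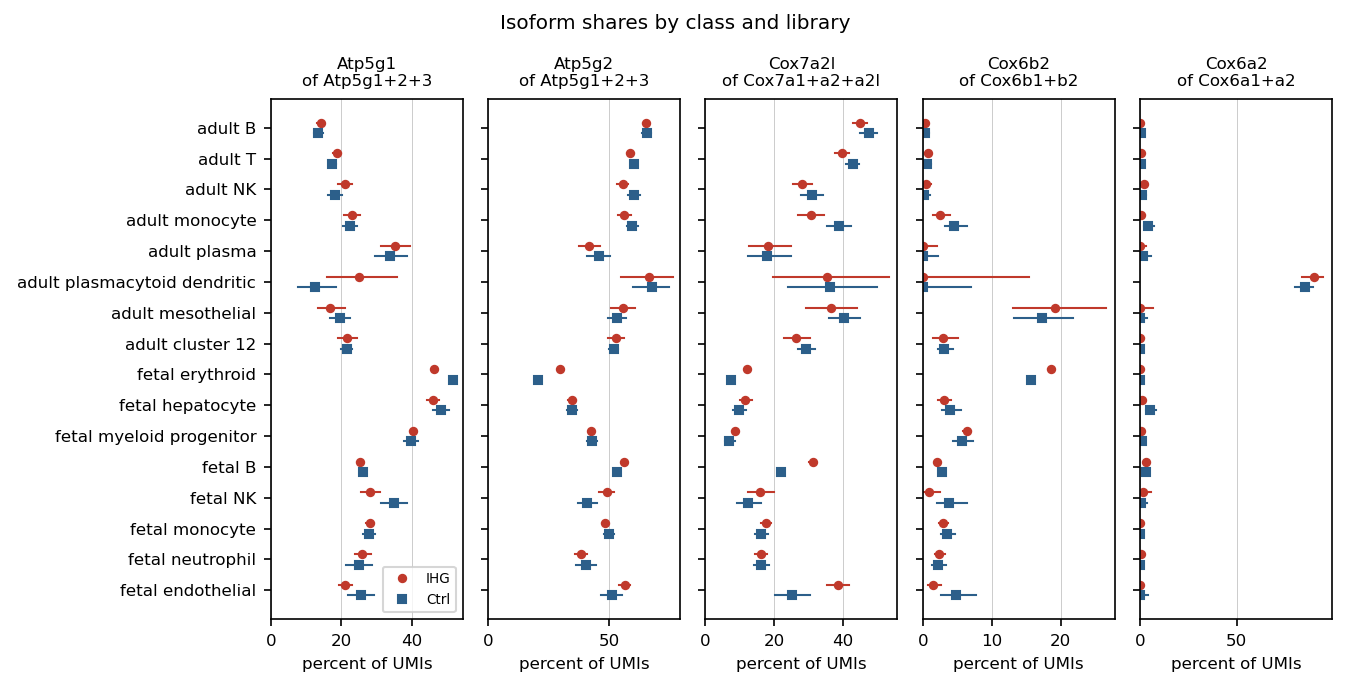
Share of UMIs (percent, x axes) of 5 members within their isoform set, by class (adult above, fetal below); red circles are IHG, blue squares Ctrl, and lines are 95% counting intervals. Atp5g1 is highest in fetal erythroid-like cells (46.5% in IHG, 51.8% in Ctrl), and Cox6a2 stands at 90.2% and 85.4% in adult plasmacytoid dendritic-like cells and at 17% or less in every other adult class.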

How the data were processed

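Single-cell RNA of 4 liver libraries, 1 per group, was analysed from the count tables that the authors deposited. Per the file headers these are UMI counts of genes in cell barcodes from Cell Ranger 5.0.0, on mm10 per the submitters' processing notes, which also name Seurat. How reads on overlapping or duplicated genes were counted is not given in the sources used here. A barcode needed 300 genes or more, and a mitochondrial share no higher than 25%. Scrublet doublet scores were computed in scanpy 1.11.5, and barcodes past its threshold were removed in the fetal libraries (267 in IHG, 107 in Ctrl). In the adult libraries that threshold marked 0.0147% of IHG and 0% of Ctrl barcodes, under the set minimum of 0.5%, so barcodes above the 95th percentile of the score were removed (286 and 244).

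The libraries of each age were clustered together without integration (counts per 10000 on a log scale, 2000 variable genes without members or ribosomal genes, 30 components, 15 neighbours, leidenalg 0.10.2 at resolution 1) and named from marker lists; the scoring minimum and tie margin were set after clusters had been seen. Classes with at least 20 cells in both libraries were compared. Counts were summed per library and class, with 0.5 added to each count in gene ratios; a member counted as measured from 20 UMIs, both libraries together, and backgrounds took genes with at least 50. The text uses members by the named-genes rule (all mitochondrial genes, the isoform sets, the 5 with most UMIs, the 3 highest and 3 lowest per class with at least 100 UMIs) and, chosen after values were seen, members that recur over classes and those described for the age difference. Members and lists were chosen with earlier results of these data known. Shares carry Clopper-Pearson intervals, ratios of counts exact conditional Poisson ones and mitochondrial to nuclear ratios Wald ones on the log scale; the interval steps were tested on simulated counts. Gene positions and coding lengths come from GENCODE M21 on mm10, matched for all 98 members, with a coding length for 84 of 85 nuclear ones. Alternatives covered the filters, weighting of cells, depth, clustering and scaling. Work was done in Python 3.11.15 with matplotlib 3.10.9, igraph 0.11.9, pandas 2.3.3, scikit-learn 1.9.0, scipy 1.17.1 and numpy 2.4.6. The values of 1 member are not reported here.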

Additional observations from a re-analysis of the deposited data

Results flagged for a closer look

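Several log2 ratios of IHG over Ctrl had opposite signs in the adult and the fetal libraries. With 1 library per group the difference between ages was not tested, and age cannot be told apart from library preparation. The mitochondrial share was at -0.33 in adult and 0.18 in fetal B-like cells, at -0.30 and 0.38 in NK-like cells, and at -0.26 and 0.33 over all cells. The mitochondrial to nuclear ratio was at -0.32 in adult and 0.29 in fetal B-like cells, at -0.34 and 0.14 in NK-like cells, at -0.31 and 0.074 in endothelial-like cells and at -0.14 and 0.31 over all cells. The nuclear share was at 0.13 in adult and -0.018 in fetal monocyte-like cells, at -0.15 and 0.046 in neutrophil-like cells and at -0.12 and 0.023 over all cells. Haemoglobin stood at 1.62% in fetal IHG and 7.35% in fetal Ctrl B-like cells, and 0.657% and 24.3% in NK-like cells. Without mitochondrial and haemoglobin UMIs in the total, the fetal mitochondrial share was at 0.10 in B-like cells, -0.011 in NK-like cells and 0.031 over all cells, and the fetal nuclear share over all cells was at -0.28.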

How the results depend on the processing

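All values are log2 ratios of IHG over Ctrl unless said otherwise, and the cause of a change was not tested. For adult cells together the mitochondrial share was at -0.25 with a 10% maximum, -0.26 with no maximum, -0.24 as a mean over cells or thinned to 1000 UMIs, -0.27 with at least 500 genes or without mitochondrial and haemoglobin UMIs in the total, and -0.13 under median-of-ratios scaling. Their nuclear share was at -0.10 as a mean over cells, -0.13 without those UMIs and 0.0068 under median-of-ratios scaling, and the mitochondrial to nuclear ratio was at -0.13 with the 10% maximum, -0.12 thinned and -0.15 with 500 genes. For fetal cells together the mitochondrial share was at 0.39, 0.29 and 0.21 with a maximum of 10%, of 50% and with none, 0.32 with doublets kept, 0.30 with 500 genes, 0.031 without mitochondrial and haemoglobin UMIs, -0.22 as a mean over cells, -0.14 thinned and -0.11 under median-of-ratios scaling. Their nuclear share was at 0.037 (50% maximum), 0.019 (doublets kept), -0.028 (500 genes), -0.13 (mean over cells), -0.16 (thinned), -0.28 (without mitochondrial and haemoglobin UMIs) and -0.42 (median of ratios). Their mitochondrial to nuclear ratio was at 0.37, 0.25 and 0.19 with maxima of 10%, 50% and none, 0.33 with 500 genes, 0.018 thinned and -0.089 as a mean over cells. Counts of classes higher in IHG became 1 of 10 for the adult mitochondrial share and 2 for the adult ratio with means over cells. In the fetus they became 2 of 9 for the mitochondrial share under median-of-ratios scaling, 2 and 0 for the nuclear share without those UMIs and under that scaling, and 4 for the ratio with means over cells or thinned. Members 1.5-fold higher in fetal erythroid-like cells became 3 without those UMIs and 0 under median-of-ratios scaling, and lower ones 8 and 29. Lower members became 13 in fetal B-like cells under that scaling and 3 in hepatocyte-like cells under either, or with members of at least 1 UMI. With that last filter adult B-like cells had 1 lower and T-like cells 1 higher and 1 lower.

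Single classes changed sign as follows. With means over cells, the mitochondrial share was at 0.048 in adult monocyte-like and -0.069 in fetal B-like cells, the nuclear share at 0.0023 in adult B-like, 0.15 in fetal dendritic-like, -0.019 in erythroid-like and -0.0035 in hepatocyte-like cells, and the ratio at 0.0063 in adult monocyte-like, -0.043 in fetal NK-like and -0.25 in fetal endothelial-like cells. Thinned, the mitochondrial share was at -0.0021 in fetal B-like cells, the nuclear share at 0.016 in dendritic-like and -0.017 in erythroid-like cells, and the ratio at -0.11 in both NK-like and endothelial-like cells of the fetus. Without mitochondrial and haemoglobin UMIs, fetal NK-like cells were at -0.011 and -0.15 for the 2 genomes, and the nuclear share was at -0.27 in erythroid-like and -0.035 in hepatocyte-like cells. Without haemoglobin-rich cells the nuclear share was at -0.049 in fetal NK-like and -0.074 in hepatocyte-like cells. Median-of-ratios scaling put the mitochondrial share at -0.015 in fetal B-like, -0.13 in NK-like and -0.11 in erythroid-like cells. It put the nuclear share at 0.088 in adult B-like and 0.057 in stellate/fibroblast-like cells, and at -0.27 in NK-like, -0.55 in erythroid-like, -0.043 in hepatocyte-like, -0.11 in myeloid progenitor-like and -0.13 in neutrophil-like cells of the fetus. The 10% maximum gave dendritic-like cells 0.056 for the mitochondrial share and 0.16 for the ratio, the 50% maximum gave fetal endothelial-like cells -0.016 for the ratio, and 500 genes gave -0.00996 there and 0.018 for the nuclear share of fetal monocyte-like cells. Clustering each library by itself gave -0.39 and -0.46 for the 2 genomes in myeloid progenitor-like cells and -0.076 for the nuclear share of adult mesothelial-like cells. The mean of within-cluster ratios, chosen after seeing the data, gave -0.076 and -0.17 for the 2 genomes in erythroid-like cells and 0.0022 for the nuclear share in adult B-like cells. No paired analysis was possible because each group is 1 library, and for the same reason no replicate could be left out.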
